A study of Mus musculus with 8 samples.

Results

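The family of miR-15, miR-16, miR-195 and miR-497 was represented by 5 mature miRNAs, mmu-miR-15a-5p, mmu-miR-15b-5p, mmu-miR-16-5p, mmu-miR-195a-5p and mmu-miR-497a-5p, among the 1978 mouse miRNAs of the deposited table. They were chosen by name as a family with a common seed, in the knowledge that it holds the most abundant miRNA of these libraries, and no threshold on a measured value was applied. Of the members, 4 had at least 1 read in at least 2 cell and 2 EV libraries and were among the 180 miRNAs tested. The remaining member, miR-497a-5p, was read in cells and had 0 reads in every EV library.

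The libraries were made from the small RNA of 3A cells, nontumorigenic hepatocytes of the mouse in culture, and of the EVs recovered by ultracentrifugation of medium that they had conditioned for 72 h in the presence of EV-depleted FBS. Cells carried, from a retroviral vector and after puromycin selection, either a scrambled shRNA (shCTR) or an shRNA against PCBP2 (shPCBP2), an RNA-binding protein that the study examined for the retention of miRNAs in the cell. There were 2 biological replicates for each shRNA in cells and 2 in EVs, 8 libraries in all, and every library had received the nematode miRNA cel-miR-39 as a spike-in. The PCBP2 mRNA is not measured by small RNA libraries, so the knockdown could not be checked here. The study itself reported the silencing of PCBP2 in these cells by mRNA level and by western blot.

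Mouse miRNAs received between 8745848 and 12732173 reads in the cell libraries and between 503070 and 687592 reads in the EV libraries, where the spike-in took 97.6% to 98.4% of all counted reads. Counts of 1 to 40 reads made up 42.3% of the counts above 0 in cells and 3.68% of those in EVs, so that rare miRNAs were seldom recorded in EVs. Of the hepatocyte miRNAs, miR-194-5p and miR-192-5p were read in all cell libraries. But miR-122-5p, the defining miRNA of mature hepatocytes, made up only 0.00357% to 0.00415% of the mouse reads of cells. In EVs miR-122-5p made up 0.144% to 0.372% and miR-194-5p 0.691% to 0.882%, and miR-192-5p had 0 reads in both shPCBP2 libraries. A list of 10 miRNAs of blood cells, endothelium and serum took 0.0159% to 0.022% of the mouse reads in cells and 11.6% to 13.6% in EVs. In the cells 5 of the 10 were at 0 in every library, namely the erythroid miR-451a, both arms of the erythroid miR-144 and both arms of the leukocyte miR-142a, and in EVs all 10 were read in at least 1 library. The list was not uniform. Relative to the spike-in, the log2 difference of EVs from cells was 6.69 in shCTR and 7.69 in shPCBP2 for miR-486a-5p. For miR-126a-3p it was -0.90 and -0.17, and this miRNA held 2108 of the list's 2601 reads in cell shCTR replicate 1. In EV shCTR replicate 1, miR-486a-5p held 30647 and miR-486b-5p 30824 of the list's 79906 reads, so this pair made up most of it. Their counts were also close in cells, at 193 and 210 in shCTR replicate 1 and 68 and 67 in shPCBP2 replicate 1. Whether the same reads were counted under both names was not tested. The list's share of mouse reads differed between the same EV and cell libraries that every contrast of EVs against cells compares. Its part in those contrasts was not tested.

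A miRNA guides an Argonaute protein to mRNAs that pair with its seed, so that miRNAs with the same seed share most of their predicted targets. The miR-15/16 family is known as a brake on the cell cycle, through cyclins and cyclin-dependent kinases, and on survival, through Bcl2. miR-16 is among the most abundant miRNAs of many tissues and of red blood cells.

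The mature sequences are shown from RefSeq (GRCm38.p6), 5′ to 3′, because the members are told apart only by bases outside the seed. The capitals mark the seed, bases 2 to 8.
mmu-miR-15a-5p: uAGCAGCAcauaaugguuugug
mmu-miR-15b-5p: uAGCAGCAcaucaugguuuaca
mmu-miR-16-5p: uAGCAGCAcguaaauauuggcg
mmu-miR-195a-5p: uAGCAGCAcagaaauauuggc
mmu-miR-497a-5p: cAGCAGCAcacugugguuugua
The closest pair was miR-16-5p and miR-195a-5p, which differed over 21 bases at 2 positions counted from the 5′ end of miR-16-5p (G10A and U11G). miR-15a-5p and miR-15b-5p differed at 4 of 22 positions (A12C, G20A, U21C and G22A). miR-16-5p and miR-497a-5p were the most different pair, with 11 differences. Since reads of such similar miRNAs can be assigned to either, the small count of miR-195a-5p beside the very large one of miR-16-5p is uncertain.

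The 5 members come from 6 hairpins in 3 pairs. Mir15a (mature arm at chr14:61632075-61632096, minus strand) and Mir16-1 (chr14:61631936-61631957, minus strand) lie in an intron of Dleu2, a noncoding transcript, with the starts of their mature arms 139 bases apart. Mir15b (chr3:69009775-69009796, plus strand) and Mir16-2 (chr3:69009918-69009939, plus strand) lie in an intron of Smc4, a gene for a condensin subunit, with starts 143 bases apart. Mir497 (chr11:70234730-70234751, plus strand) and Mir195a (chr11:70235062-70235082, plus strand) have starts 332 bases apart. Mir16-1 and Mir16-2 yield the same mature sequence, so the reads of miR-16-5p cannot be divided between the loci on chromosomes 14 and 3.

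The letters AUUA and AUUG are the core of the CELL motif, which has been tied to retention of miRNAs in cells. AUUG was present in miR-16-5p and miR-195a-5p, and it is shown here in capitals in place of the seed.
mmu-miR-16-5p: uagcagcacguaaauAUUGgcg
mmu-miR-195a-5p: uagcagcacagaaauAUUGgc
It began at base 16 in both and was absent from miR-15a-5p, miR-15b-5p and miR-497a-5p. The study used miR-195a-5p as an example of a miRNA with the CELL motif but no hEXO motif. It reported no binding of PCBP2 to miR-195a-5p in crosslinking immunoprecipitation. Of the 1679 miRNAs of the table with a reference sequence, 114 (6.79%) held AUUG, as did 25 of the 156 tested ones with a sequence (16%). None of the members held AUUA, which was found in 42 miRNAs (2.5%). None held GGCU, a string within the hEXO motif bound by the EV-loading protein SYNCRIP, which was found in 223 (13.3%). The hEXO motif allows several bases at each position, so the absence of GGCU does not show that hEXO is absent. The full motif was not searched. Only the sense strand of the mature RNA was searched, and the 3 strings do not overlap in any member.

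As a share of all mouse miRNA reads, the family made up 9.36% and 9.03% in the shCTR cells and 10.0% and 10.5% in the shPCBP2 cells, and in the EVs it made up 14.2% and 14.4% with shCTR and 14.1% and 16.6% with shPCBP2. The share was higher in all 4 EV libraries than in all 4 cell libraries. The 5 miRNAs nearest to miR-16-5p in profile (listed below) summed to 7.21% to 7.8% in cells and 8.25% to 9.32% in EVs. They were picked for that likeness. Scaled by the total mouse miRNA count, 43 of the 180 tested miRNAs were called higher in EVs in shCTR and 54 in shPCBP2. How many miRNAs separate EVs from cells by their share was not counted. The 95% Wilson interval of the family share reached at most 0.103 percentage points to either side, which covers counting error only. With the 10 blood and serum miRNAs taken out of the total, the family's mean share was 16.2% in EV shCTR and 17.7% in EV shPCBP2. In the cells it was 9.20% and 10.3%. Taking them out could only raise the share, and more so in EVs, where the list is larger. The list's part in the family share was not tested.

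**Figure D1:**
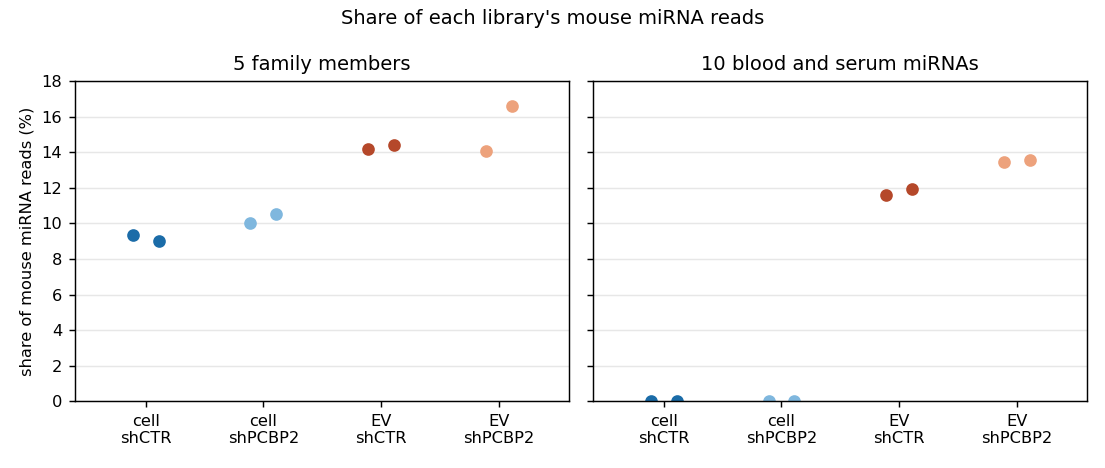
The y axis is the share of a library's mouse miRNA reads (%), for the 5 family members on the left and the 10 blood and serum miRNAs on the right, and each point is 1 library of the group named below it. The family sits between 9.03% and 10.5% in cells and between 14.1% and 16.6% in EVs, and the blood and serum list near 0 in cells and between 11.6% and 13.6% in EVs.

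The family was dominated by miR-16-5p, which ranked 1 among the mouse miRNAs in each of the 8 libraries. It accounted for 90.7% to 93.7% of the family's reads in cells and for 85.5% to 89.9% in EVs. miR-15b-5p followed with 4.98% to 7.72% in cells and 8.06% to 11.9% in EVs, and miR-15a-5p with 1.23% to 1.79% in cells and 1.20% to 3.16% in EVs. The Mir497/Mir195a pair was low in the cells, where miR-195a-5p ranked between 295 and 379 and miR-497a-5p between 238 and 413. Without miR-16-5p, the other 4 members made up 0.774% and 0.654% of the mouse reads in cell shCTR and cell shPCBP2, and 1.76% and 1.77% in EV shCTR and EV shPCBP2 (group means).

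Levels are given as reads per 1000000 reads of the spike-in. In the cells the level of miR-16-5p was 61856 and 60877 with shCTR and 46543 and 70042 with shPCBP2, and in the EVs it was 3161 and 2618 with shCTR and 2056 and 2429 with shPCBP2. All EV libraries lay below all cell libraries, and the shPCBP2 values overlapped the shCTR values in cells and lay below them in EVs. The median log2 difference of shPCBP2 from shCTR in EVs was also negative over all tested miRNAs (-0.54).

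In the cells the level of miR-15b-5p was 3837 and 5185 with shCTR and 2476 and 3774 with shPCBP2, and in the EVs it was 308 and 363 with shCTR and 187 and 258 with shPCBP2. Here too the EV libraries lay below the cell libraries, and the shPCBP2 libraries below the shCTR libraries of the same compartment. The log2 difference of shPCBP2 from shCTR was -0.59 in EVs and -0.53 in cells. The medians over all tested miRNAs were close to these values, at -0.54 in EVs and -0.49 in cells. In the cells the level of miR-15a-5p was 1194 and 1080 with shCTR and 716 and 915 with shPCBP2, and in the EVs it was 42.2 and 71.1 with shCTR and 73.2 and 59.6 with shPCBP2. This member was lower with shPCBP2 in both cell replicates, while its EV values overlapped. Its log2 difference in cells, -0.48, was also close to the median of all tested miRNAs. How many tested miRNAs separate shPCBP2 from shCTR libraries in this way was not counted.

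In the cells miR-195a-5p had 48 and 24 reads with shCTR and 16 and 50 with shPCBP2, and in the EVs it had 106 and 243 with shCTR and 100 and 115 with shPCBP2. In the cells its level was 2.69 and 1.53 with shCTR and 0.907 and 2.81 with shPCBP2, and in the EVs it was 3.82 and 9.33 with shCTR and 2.66 and 3.78 with shPCBP2. Its mean level was higher in EVs than in cells with either shRNA, unlike that of every other member, but the lowest EV value lay below the highest cell value. In the cells miR-497a-5p had 19 and 70 reads with shCTR and 74 and 44 with shPCBP2, and it had 0 in each EV library.

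In cells the order of the levels was miR-16-5p, miR-15b-5p and miR-15a-5p, without overlap between neighbours, and then miR-497a-5p and miR-195a-5p, whose levels overlapped (1.07 to 4.45 and 0.907 to 2.81). In EVs the order was miR-16-5p, miR-15b-5p, miR-15a-5p and miR-195a-5p, again without overlap between neighbours, with miR-497a-5p unread.

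**Figure D2:**
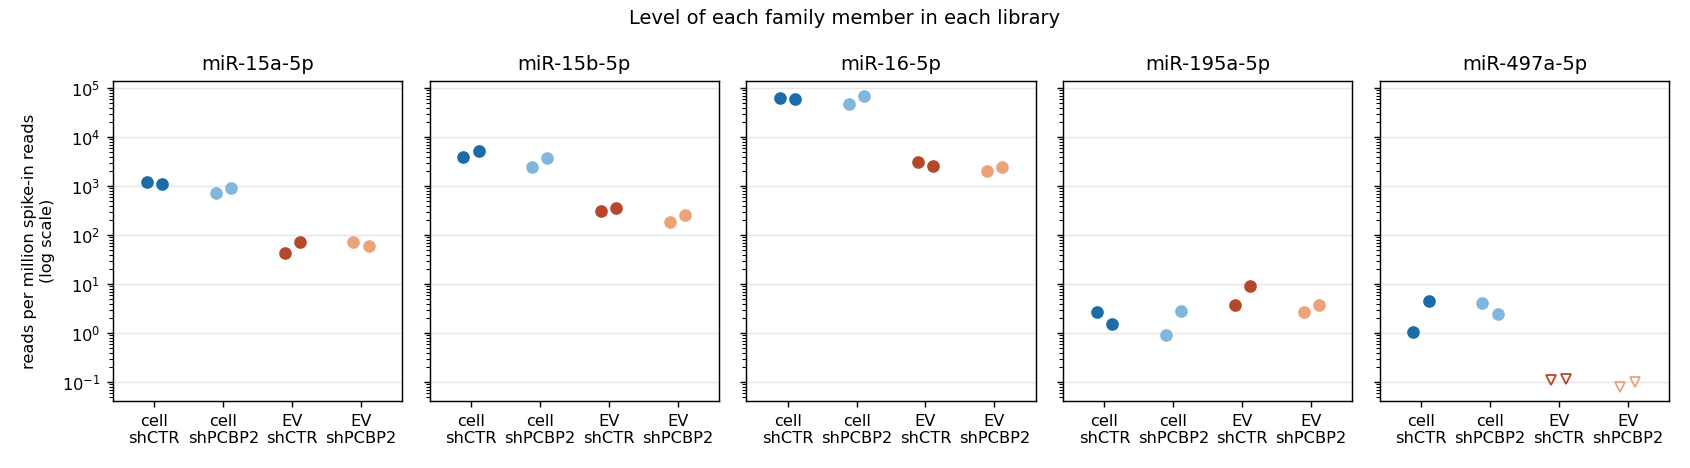
The y axis, on a log scale, is the level in reads per 1000000 reads of the spike-in, with 1 panel per member and 1 point per library of the group named below it; open triangles mark libraries with 0 reads, drawn at the level of 3 reads. miR-16-5p, miR-15b-5p and miR-15a-5p lie lower in EVs than in cells, miR-195a-5p does not, and miR-497a-5p was unread in all 4 EV libraries.

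The first comparison asked how the members divide between EVs and cells. Relative to the spike-in, the 3 abundant members were lower in EVs than in cells. In shCTR, miR-16-5p was 21.2-fold lower (log2 difference -4.41 ± 0.26, SE, adjusted p = 1.29e-05), miR-15a-5p 20.1-fold lower (-4.33 ± 0.40, adjusted p = 0.000101) and miR-15b-5p 13.5-fold lower (-3.75 ± 0.33, adjusted p = 7.44e-05), by the quasi-likelihood test of edgeR (Benjamini-Hochberg adjustment). In shPCBP2 the same members were 26-fold (-4.70 ± 0.26, adjusted p = 1.05e-05), 12.3-fold (-3.62 ± 0.39, adjusted p = 0.000207) and 14.1-fold lower (-3.81 ± 0.33, adjusted p = 6.98e-05). For miR-195a-5p the log2 difference was 1.64 ± 1.05 in shCTR (adjusted p = 0.195) and 0.79 ± 1.03 in shPCBP2 (adjusted p = 0.512), and neither passed the threshold of 0.05.

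Thus 3 of the 4 tested members were called lower in EVs and 0 higher in each of the shCTR and shPCBP2 comparisons. Of all 180 miRNAs tested, 66.1% were called in shCTR (59.4% lower and 6.67% higher) and 67.8% in shPCBP2 (60% lower and 7.78% higher), so a lower level in EVs was the common case. The median log2 difference was -4.04 over the tested members against -4.93 over all tested miRNAs in shCTR, and -3.72 against -4.90 in shPCBP2. The EV/cell difference of miR-16-5p ranked 75 from the highest of the 180 in shCTR and 83 in shPCBP2, and that of miR-195a-5p ranked 17 and 23.

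These directions depended on the scaling. The amounts of cell and EV material behind 1 unit of spike-in were not given in the sources used here, and in bulk RNA fewer vesicles and less miRNA per vesicle cannot be told apart. When libraries were scaled by the total mouse miRNA count, which shifted the median of all tested miRNAs to 0.06 in shCTR and 0.30 in shPCBP2, all 4 tested members had positive values. miR-16-5p was then higher in EVs by 0.57 in shCTR (adjusted p = 0.00291) and 0.50 in shPCBP2 (adjusted p = 0.00478) on the log2 scale, and miR-15b-5p by 1.26 (adjusted p = 0.00445) and 1.38 (adjusted p = 0.00287). miR-195a-5p was higher by 6.66 (adjusted p = 0.00578) and 6.06 (adjusted p = 0.00703). For miR-15a-5p the values were 0.69 (adjusted p = 0.151) and 1.56 (adjusted p = 0.00826).

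**Figure D3:**
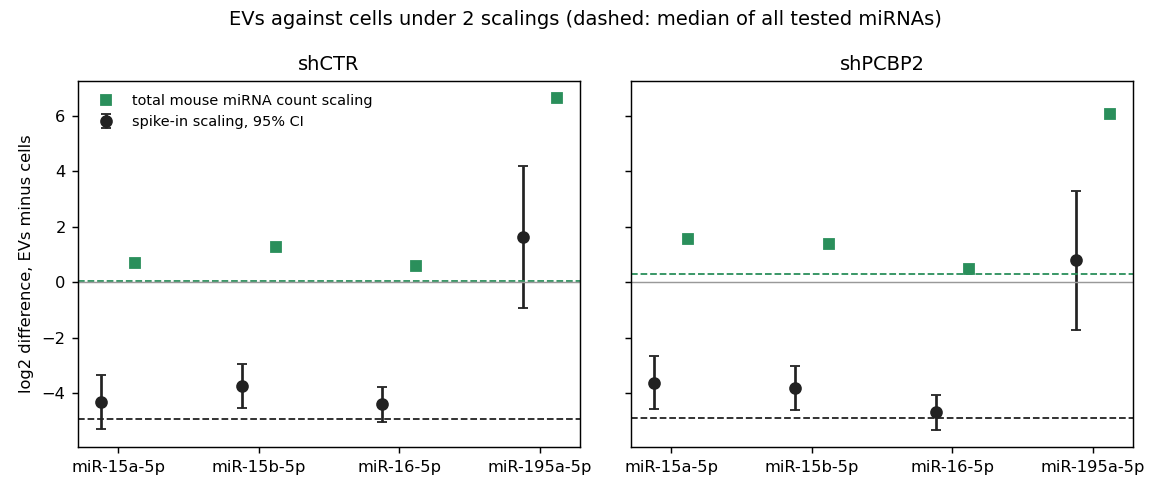
The y axis is the log2 difference of EVs minus cells for the 4 tested members, in shCTR on the left and shPCBP2 on the right; black circles with 95% confidence intervals are scaled by the spike-in, green squares by the total mouse miRNA count, and dashed lines are the medians of all 180 tested miRNAs under each scaling. miR-16-5p, miR-15a-5p and miR-15b-5p lie below 0 under the first scaling and above 0 under the second, and miR-195a-5p above 0 under both.

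A ratio between members of the same library does not depend on the spike-in or on depth, so 3 ratios to miR-16-5p were compared between the 4 EV and the 4 cell libraries. miR-15b-5p amounted to 6.20% and 8.52% of miR-16-5p reads in the cells with shCTR and 5.32% and 5.39% with shPCBP2, and in the EVs to 9.73% and 13.9% with shCTR and 9.09% and 10.6% with shPCBP2. All EV values exceeded all cell values. The ratio was 1.71-fold higher in EVs (log2 difference 0.78, exact permutation p = 0.0286, adjusted over the 3 ratios p = 0.0429, two-sided, n = 4 and 4). In EV/cell difference miR-15b-5p ranked 59 of the 180 in shCTR and 67 in shPCBP2, and miR-16-5p 75 and 83. Many miRNAs outside the family thus also stood higher in EVs relative to miR-16-5p. How many of the 180 separate EVs from cells by such a ratio was not counted, here or for miR-195a-5p.

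miR-195a-5p amounted to 0.00435% and 0.00251% of miR-16-5p reads in the cells with shCTR and 0.00195% and 0.00401% with shPCBP2, and in the EVs to 0.121% and 0.357% with shCTR and 0.130% and 0.156% with shPCBP2. The groups did not overlap, and the ratio was 55.7-fold higher in EVs (log2 difference 5.80, exact permutation p = 0.0286, adjusted p = 0.0429, two-sided). It rests on 16 to 50 reads of miR-195a-5p per cell library and 100 to 243 per EV library. The median count above 0 in the EV libraries was 354 to 464. Both p-values of 0.0286 are the smallest that 4 libraries against 4 allow, and with any library left out no p below 0.0571 can be reached. The numerator and the denominator of this ratio both hold AUUG and differ at 2 of 21 bases.

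miR-15a-5p amounted to 1.93% and 1.77% of miR-16-5p reads in the cells with shCTR and 1.54% and 1.31% with shPCBP2, and in the EVs to 1.34% and 2.72% with shCTR and 3.56% and 2.45% with shPCBP2. The ratio was 1.47-fold higher in EVs, but EV shCTR replicate 1 lay among the cell libraries (log2 difference 0.55, exact permutation p = 0.143, adjusted p = 0.143, two-sided). Over the same 8 libraries the blood and serum list took 0.0159% to 0.022% of mouse reads in cells and 11.6% to 13.6% in EVs, and its part in these ratios was not tested.

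**Figure D4:**
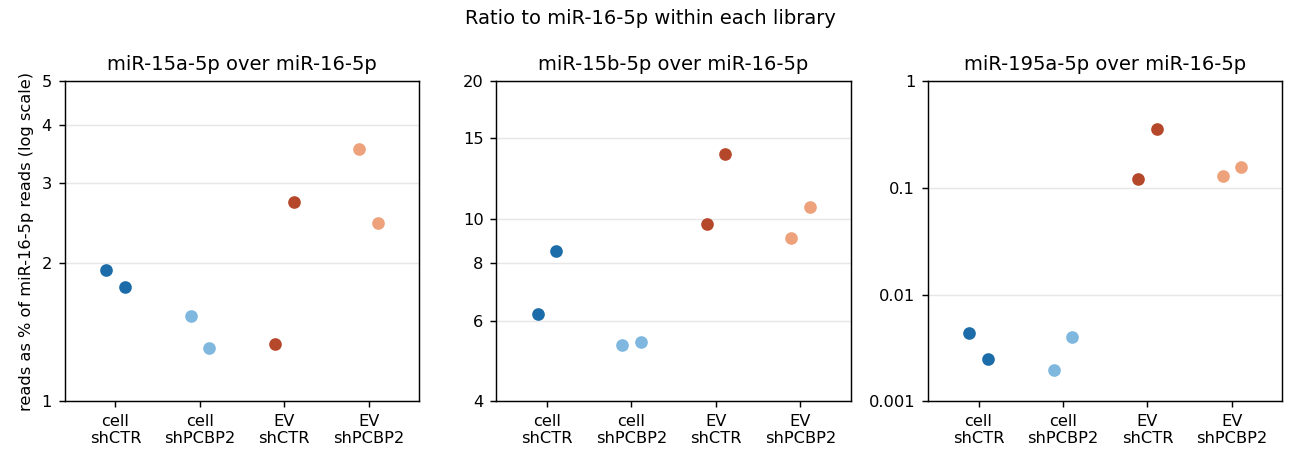
The y axis, on a log scale that differs between panels, is the reads of a member as a percent of the miR-16-5p reads of the same library, with 1 point per library of the group named below it. For miR-15b-5p and miR-195a-5p the 4 EV libraries lie above the 4 cell libraries, and for miR-15a-5p they overlap.

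The neighbouring hairpins Mir497 and Mir195a differed in where they were read. In cells miR-497a-5p had 39.6% and 292% of the reads of miR-195a-5p in shCTR, and 463% and 88.0% in shPCBP2. In EVs it had 0 reads beside 106, 243, 100 and 115 reads of miR-195a-5p. A count of 0 allows up to 3 counts, or 2.83%, 1.23%, 3.00% and 2.61% of miR-195a-5p, for counting error only. Counts of 1 to 40 were seldom recorded in EVs, and miR-15b-3p was at 0 in 3 EV libraries where the arm ratio of the cells gives 44.3 to 53.9 reads, so a 0 in EVs can stand for more than 3 counts and no fold is given for miR-497a-5p. The pairing of these miRNAs was chosen after their values were seen and was not tested.

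As a share of mouse reads no difference of miR-497a-5p was detectable, since its share of the cell reads would give only 4.52 EV reads in shCTR and 6.19 in shPCBP2 over both replicates, and counts that low were rarely recorded in EVs.

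The second comparison asked whether shPCBP2 changed the members. For the EV/cell ratio, the quantity that the study examined for retention, 0 of the 4 tested members were called, against 2.22% of all tested miRNAs. The log2 change of the ratio in shPCBP2 against shCTR was 0.71 for miR-15a-5p (95% confidence interval -0.50 to 1.92), -0.06 for miR-15b-5p (-1.07 to 0.95), -0.29 for miR-16-5p (-1.07 to 0.49) and -0.84 for miR-195a-5p (-4.38 to 2.69). The adjusted p was 0.987 for miR-15a-5p and 0.992 for each of the other 3 by edgeR's quasi-likelihood test. The interval was narrowest for miR-16-5p. In this and the following comparisons of shPCBP2 with shCTR, 0 members had an unadjusted p under 0.05 in edgeR, and DESeq2 and limma voom also called 0 members.

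In EVs 0 of the 4 tested members were called in shPCBP2 against shCTR, against 7.22% of all tested miRNAs. The log2 difference was 0.23 ± 0.35 for miR-15a-5p (adjusted p = 0.821), -0.59 ± 0.29 for miR-15b-5p (adjusted p = 0.376), -0.37 ± 0.23 for miR-16-5p (adjusted p = 0.467) and -1.03 ± 1.03 for miR-195a-5p (adjusted p = 0.728). The median was -0.48 over the tested members and -0.54 over all tested miRNAs.

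In cells 0 of the 4 tested members were called, as were 0% of all tested miRNAs by edgeR's quasi-likelihood test, while 25 of the 180 had an unadjusted p under 0.05, none of them a member. DESeq2 called 18 of the 180 and limma voom 16. The log2 difference was -0.48 ± 0.35 for miR-15a-5p (adjusted p = 0.708), -0.53 ± 0.29 for miR-15b-5p (adjusted p = 0.558), -0.07 ± 0.23 for miR-16-5p (adjusted p = 0.938) and -0.18 ± 1.03 for miR-195a-5p (adjusted p = 0.943). The median was -0.33 over the tested members and -0.49 over all tested miRNAs. The untested miR-497a-5p had a level of 1.07 and 4.45 in cell shCTR and of 4.19 and 2.47 in cell shPCBP2, which overlapped.

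**Figure D5:**
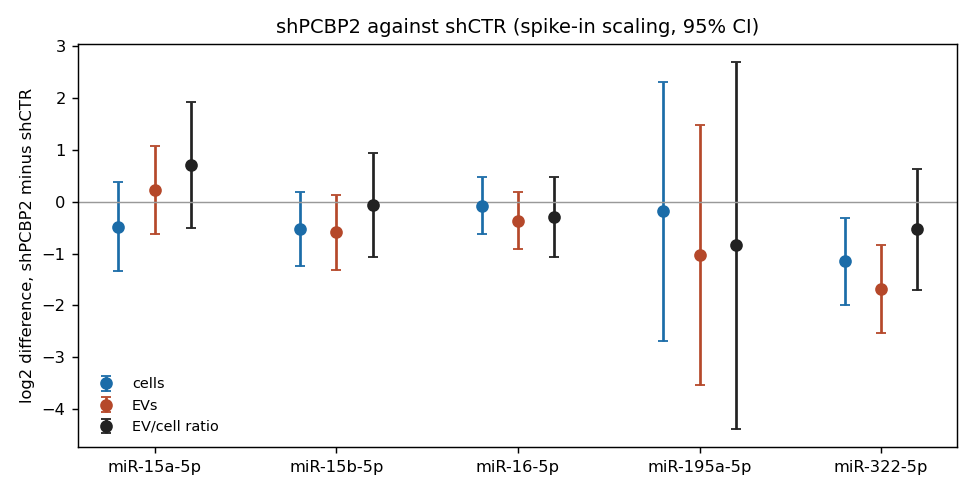
The y axis is the log2 difference of shPCBP2 minus shCTR, scaled by the spike-in, in cells, in EVs and for the EV/cell ratio, with 95% confidence intervals, for the 4 tested members and miR-322-5p, which has the same seed. The intervals of the members all include 0, and those of miR-322-5p lie below 0 in cells and in EVs.

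Outside the 5 members, 5 miRNAs of the table carry the same seed in the reference (miR-195b, miR-322-5p, miR-6342, miR-6353 and miR-6419), and of these miR-322-5p, which comes from the X chromosome, was the one with reads. It is shown for comparison with the seed in capitals.
mmu-miR-322-5p: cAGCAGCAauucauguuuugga
In the cells its level was 4280 and 4322 with shCTR and 1630 and 2262 with shPCBP2, and in the EVs it was 104 and 80.8 with shCTR and 20.2 and 37.4 with shPCBP2. In both compartments the shPCBP2 libraries lay below the shCTR libraries, and how many tested miRNAs separate in this way was not counted. Its log2 difference in shPCBP2 against shCTR was -1.68 ± 0.35 in EVs (adjusted p = 0.0396) and -1.14 ± 0.34 in cells (adjusted p = 0.233) by edgeR's quasi-likelihood test. The medians over all tested miRNAs were -0.54 in EVs and -0.49 in cells, and 7.22% and 0% of them were called. The call in EVs was lost in 14 of the 18 alternatives, among them leaving out any library other than EV shPCBP2 replicate 2 (adjusted p = 0.0589 to 0.129). The difference in cells, not called here, was called in 4 of the 18 alternatives, namely by DESeq2, by limma voom, with only the 4 libraries compared and with the stricter filter of 10 counts (smallest adjusted p = 0.00597). The difference between miR-322-5p and the members was not tested.

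The opposite arms of the same hairpins were scarce. In cells the 5p arm took 99.4% of the reads of mir-15b and all but 227 of those of mir-16-1 and mir-16-2 (4129575 reads), and miR-15a-3p, miR-195a-3p and miR-497a-3p had 0 reads in every library. miR-15b-3p had 656 and 398 reads in cell shCTR and 222 and 371 in cell shPCBP2. In EVs it had 0, 165, 0 and 0 reads, where the arm ratio of the cells would give 53.9 and 59.7 reads for shCTR and 44.3 and 49.4 for shPCBP2. The second replicate of EV shCTR thus held all the EV reads of the opposite arms. The similar miRNA miR-497b had 14 and 9 reads in cell shPCBP2 and 0 elsewhere.

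The 5 tested miRNAs outside the family whose levels over the 8 libraries followed those of miR-16-5p most closely were miR-151-5p, miR-100-5p, miR-221-3p, miR-23a-3p and let-7a-5p. Their root mean square difference from the centred log2 profile of miR-16-5p was 0.177, 0.177, 0.194, 0.208 and 0.212, against a median of 1.49 over all tested miRNAs outside the family. The members themselves were less close, at 0.463 for miR-15b-5p, 0.482 for miR-15a-5p and 2.95 for miR-195a-5p. These are descriptions over 8 libraries that share their spike-in scaling.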

How the data were processed

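The authors sequenced small RNA of 8 libraries, removed adapters, mapped read 1 against miRNA precursors (mirPRo with Novoalign) and deposited raw counts of reads per mature miRNA, without normalization. The table has 1980 rows, 1978 of them mouse miRNAs. Its largest counts are printed to 6 significant digits, which touches miR-16-5p in 2 cell libraries. Libraries were grouped by their titles, whose replicate numbers for shPCBP2 differ from those of the descriptions. The members and the lists were chosen with earlier results of these data known.

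From the counts, library sizes proportional to cel-miR-39-3p were set, and edgeR 4.0.16 (R 4.3.3) fitted compartment, shRNA and their interaction over all 8 libraries with glmQLFit and glmQLFTest, after a filter of at least 1 read in at least 2 cell and 2 EV libraries, which left 180 miRNAs. The fit had a common dispersion of 0.693, a prior df of 2.10 and a residual df of 4, and standard errors were derived from its F statistic. p-values were adjusted by the Benjamini-Hochberg method over all 180 miRNAs, with a threshold of 0.05. Log2 ratios within a library used a pseudocount of 0.5 and an exact permutation test (scipy 1.17.1). The fit was also run on simulated data, and no result given here rests on its outcome.

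As alternatives, libraries were scaled by TMM factors, by median-of-ratios size factors or by the total mouse miRNA count, and further alternatives were no filter, at least 10 counts in every library, DESeq2 1.42.0, limma voom (limma 3.58.1), the replicate number as a block, only the 4 libraries compared, and each library left out. Named were all members, their opposite arms, miRNAs with the same seed, the similar miR-195b and miR-497b, and the 5 miRNAs nearest to miR-16-5p in profile. Sequences came from RefSeq (GRCm38.p6), which held 1679 of the 1978 miRNAs, and host genes from GENCODE. The reads carry no molecular identifiers, so intervals and limits cover counting error only, and p-values measure the spread between 2 replicates a group.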

Additional observations from a re-analysis of the deposited data

How the results depend on the processing

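The number of members called for shPCBP2 against shCTR, in EVs, in cells and for the EV/cell ratio, was 0 under every alternative run. For EVs against cells, the call of 3 members as lower in EVs was kept by every alternative that retained the spike-in, and under the other 3 scalings the direction turned, except for miR-16-5p in shPCBP2 under TMM factors, which stayed lower but was no longer called. In shCTR 2 members were called higher under TMM factors, 2 under median-of-ratios size factors and 3 under the total count. In shPCBP2 the numbers were 3, 3 and 4. Of all 180 tested miRNAs, 42, 40 and 43 were called higher in shCTR and 42, 45 and 54 in shPCBP2. In that order of scalings, the log2 difference in shCTR was 0.46, 0.49 and 0.69 for miR-15a-5p, 1.03, 1.05 and 1.26 for miR-15b-5p and 0.36, 0.36 and 0.57 for miR-16-5p. In shPCBP2 it was 0.92, 1.13 and 1.56 for miR-15a-5p, 0.78, 0.98 and 1.38 for miR-15b-5p, and -0.12, 0.087 and 0.50 for miR-16-5p.

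The uncalled changes with shPCBP2 also turned. In cells they became 0.013 (miR-15a-5p), 0.40 (miR-16-5p) and 0.19 (miR-195a-5p) under TMM factors, 0.32 (miR-16-5p) and 0.11 (miR-195a-5p) under median-of-ratios size factors and 0.19 (miR-16-5p) under the total count. In EVs miR-16-5p became 0.042 under median-of-ratios size factors and 0.12 under the total count, which also gave 0.13 for the EV/cell ratio of miR-15b-5p. With 1 library left out, the EV/cell ratio ranged from -0.34 to 0.27 for miR-15b-5p, from -0.56 to 0.033 for miR-16-5p and from -1.44 to 0.19 for miR-195a-5p. The EV difference of miR-15a-5p ranged from -0.10 to 0.65, and the cell difference from -0.40 to 0.19 for miR-16-5p and from -1.21 to 0.41 for miR-195a-5p. The cause of these turns was not tested.

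Within-library ratios kept their sign. With 1 library left out the log2 difference of EVs from cells ranged from 0.65 to 0.93 for miR-15b-5p over miR-16-5p and from 5.45 to 5.97 for miR-195a-5p over miR-16-5p, and the threshold cannot be reached with 3 libraries against 4 (smallest exact p = 0.0571). With the replicate block (4 pairs) the values were 0.78 and 5.80, and the smallest p that 4 pairs allow is 0.125. The replicate numbers did not pair the libraries (correlation of deviations -0.51 to 0.04 between groups), and the replicate block left the members called in edgeR at 0, 0, 0, 3 and 3 and all calls at 1 for the EV/cell ratio, 2 in EVs and 0 in cells. A block with the numbers of cell shPCBP2 exchanged, chosen after seeing the data, gave 0, 6 and 0.

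The mean family share without miR-16-5p was 0.774% and 0.654% in cells and 1.76% and 1.77% in EVs, for shCTR and shPCBP2. The mean share of all 5 members without the blood and serum miRNAs in the total was 16.2% and 17.7% in EVs. That removal can only raise it. Over the tested miRNAs alone the share was 14.5% in EV shCTR. Over all tested miRNAs, 4 were called for the EV/cell ratio and 0 to 14 in the alternatives, 13 in EVs and 1 to 27, 0 in cells and 0 to 39, 119 for EVs against cells in shCTR and 75 to 294, and 122 in shPCBP2 and 86 to 294, where 294 came from no filter with 800 miRNAs tested. Called higher in EVs were 12 of 119 in shCTR with the spike-in and 43 of 75 with the total count. Groups of 2 limit all tests of shPCBP2, and low counts limit miR-195a-5p and miR-497a-5p.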
